A study of Sus scrofa with 2 samples.

Results

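The genes described here are the transcription factors that make and maintain skeletal muscle, together with myostatin, the secreted inhibitor of muscle growth. They were measured by RNA-seq in biceps femoris muscle of newborn cloned piglets, with 1 library made from pooled RNA of abnormal cloned piglets and 1 from pooled RNA of normal ones. Entries were taken from the joined tables when their symbol was MYOD1, MYOG, MYF5, MYF6, PAX7, MEF2A, MEF2C, MEF2D or MSTN. Entries whose best protein match was described in fixed phrases for these proteins or for PAX3 were taken as well. On the deposited columns this gave 8 of the 12535 entries with a read in either library. A further entry without a deposited symbol was MEF2D by its Ensembl identifier and was added after its values had been seen, which made 9 entries for 8 of the 9 named genes. The fixed phrases also missed an Ensembl entry described as MEF2A protein variant 1, which was not added. The gene without an entry was PAX7, and PAX3 was not listed either.

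MYF5, MYOD1, MYOG and MYF6 are basic helix-loop-helix factors that bind E-box sequences of muscle genes together with E proteins. In muscle development MYF5 and MYOD1 are known to commit cells to the myogenic fate, MYOG to drive their differentiation, and MYF6 to act late and to stay on in mature fibres. The MEF2 proteins are MADS-box factors that bind with them at many muscle promoters and are held in check by class IIa histone deacetylases. Myostatin, encoded by MSTN, signals through activin type II receptors and SMAD proteins and limits the size of muscle.

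The abnormal cloned group carried macroglossia, an umbilical defect and an inability to stand or walk normally, and its pool held RNA of 3 piglets. The pool of the normal cloned group held RNA of 4 piglets according to the methods of the study and of 3 according to the sample labels. All piglets came from somatic cell nuclear transfer, from donor cells of males, and were sampled on Day 1 after birth. The abnormal piglets and 2 of the normal ones came from embryonic fibroblasts of one Large White male, while ear fibroblasts of a second male gave the other 2 normal ones, so that donor and group cannot be told apart in full. Since each group is 1 pooled library, there is no replicate check of any difference, and every test below compares these libraries and not the conditions. In whole muscle, fewer cells of a type and less RNA per cell cannot be told apart.

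Mitochondrial transcripts took 36.0% of the unique reads of the abnormal library and 46.1% of those of the normal one, which left 4080773 and 3512592 unique reads for all other entries. Levels are given as RPKM, the unique reads scaled to the length of the transcript and to the total of the library, mitochondrial transcripts included, and differences as the log2 ratio of RPKM in the abnormal library over that in the normal one. The median log2 ratio of the 7493 entries with at least 10 reads in both libraries was 0.36, so that a ratio of this size was the middle of the table and not a departure from it. An entry was called when an Audic-Claverie test of its reads had a false discovery rate of at most 0.001 over all entries and the log2 ratio was at least 1 in size. Intervals of ratios and levels are 95% intervals and cover counting error only. As for the tissue, the skeletal actin gene ACTA1 had an RPKM of 42258 in the abnormal library and of 37387 in the normal one, and its log2 ratio was 0.18, or -0.18 after median-ratio rescaling. The other fibre marker listed, MYBPC1, a myosin-binding protein gene, had an RPKM of 968 and 1067.

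Of the 9 entries, 4 were called up-regulated in the abnormal cloned group, namely MYF6, MEF2C, MEF2D and MSTN, and 0 were called down-regulated. Over all 12535 entries 12.0% were called up-regulated and 1.45% down-regulated. Among the 7493 entries with at least 10 reads in both libraries, a depth that 8 of the 9 entries reached, 1364 were called up-regulated and 155 down-regulated. Without MEF2D, 3 of 8 entries were called up-regulated. The Ensembl entry of MEF2A that was not added was not called, so counting it would add an entry and no call. MYOD1 and MYOG were not called and lay close to the middle of all entries, and MYF5, the Ensembl entry of MEF2C and MEF2A were not called either. With the reads of both its entries summed, MEF2C had a log2 ratio of 0.98 and was not called. The median log2 ratio of the 9 entries was 1.42, and 1.08 without MEF2D. Over all entries it was 0.35, and over the 7493 entries with at least 10 reads in both libraries 0.36. After rescaling by the median ratio, the same 4 entries were called, beside 812 entries up-regulated (6.48%) and 498 down-regulated over the whole table.

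**Figure D1:**
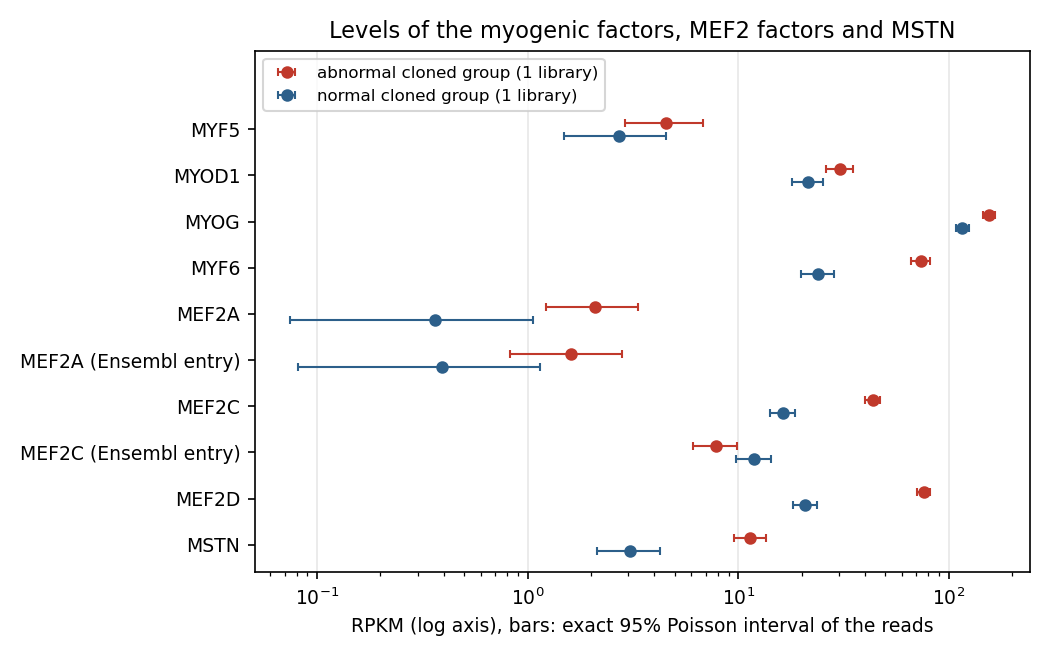
Levels of each entry in both libraries as RPKM on a log axis, with exact 95% Poisson intervals of the reads as bars. MYOG was the highest in both libraries (155 and 116), and the intervals of the 2 libraries overlapped for MYF5 and for the Ensembl entries of MEF2A and MEF2C and for none of the other entries shown. How many entries of the whole table had intervals apart was not counted. The levels are not rescaled, and after median-ratio rescaling the log2 ratio was 0.14 for MYOD1 and 0.06 for MYOG.

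MYOG was the most abundant of these genes in both libraries. Its entry (gene 497618, chromosome 9, 106802307 to 106804777, minus strand of Sscrofa9, as for all coordinates here) counted 1057 reads in the abnormal library against 808 in the normal one, with RPKM values of 155 and 116. It ranked 375th of all entries in the abnormal and 421st in the normal library. The log2 ratio was 0.42 (95% interval 0.29 to 0.55), above 0 beyond counting error but close to the median of all entries. After median-ratio rescaling it was 0.06, and with totals that leave out the mitochondrial transcripts 0.17.

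MYOD1 (gene 407604, chromosome 2, 38709241 to 38710956, minus strand) counted 186 reads in the abnormal library against 134 in the normal one, with RPKM values of 30.4 and 21.4. Its log2 ratio of 0.50 (95% interval 0.18 to 0.82) became 0.14 after median-ratio rescaling. The ratio of MYOG to MYOD1 within a library, which does not depend on how libraries are scaled, was 5.12 by RPKM in the abnormal library and 5.43 in the other. The difference of their log2 ratios was -0.09 (95% interval -0.43 to 0.26). The proportion of MYOG to MYOD1 thus did not differ detectably between the libraries, within that interval.

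MYF5 was scarce. Its entry (LOC100153269, which RefSeq names MYF5, chromosome 5, 93901647 to 93903665, plus strand) counted 23 reads in the abnormal library against 14 in the normal one, with RPKM values of 4.55 and 2.71. The log2 ratio of 0.75 had an interval from -0.19 to 1.69, so at this depth no difference was detectable.

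Of the 4 myogenic basic helix-loop-helix factors, MYF6 was the one called up-regulated. The entry whose best protein match is MYF-6 (ENSSSCG00000000937, chromosome 5, 93892057 to 93903698, plus strand) counted 391 reads in the abnormal library against 130 in the normal one. Its RPKM was 73.5 against 23.9, 3.07 times as high, and its rank moved from 1571st in the normal to 714th in the abnormal library. The log2 ratio was 1.62 (95% interval 1.33 to 1.91), and 1.26 after median-ratio rescaling. It exceeded that of MYOG by 1.20 (95% interval 0.89 to 1.52) and that of MYOD1 by 1.12 (95% interval 0.69 to 1.55), while against MYF5 the difference of 0.87 had an interval that held 0 (-0.13 to 1.87). MYF6 provided 27.9% of the summed RPKM of the 4 factors in the abnormal library and 14.6% in the other, and MYOG 58.9% and 70.8%.

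The identity of this entry has a limit. MYF5 and MYF6 are neighbours in the genome, the transcript model spans the coordinates of the MYF5 entry, and its Ensembl identifier is named MYF5 in the symbol table although the deposited protein match is MYF-6. Reads that match both entries are not unique and were not counted. Unique reads covered 79.4% of its 834 bases in the abnormal library and 79.0% in the other, and 64.1% and 46.0% of the 792 bases of the MYF5 entry. In the MYF6 entry these were 662 and 659 bases, a like number in both libraries while the reads differed.

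Among the single MEF2 entries, that of MEF2D had the largest number of reads in both libraries. Its entry (ENSSSCG00000006482, chromosome 4, 97407285 to 97408464, minus strand) counted 775 reads in the abnormal library against 216 in the normal one, with RPKM values of 76.3 and 20.8, 3.67 times as high. The deposited length of 1592 bases is larger than the span of these coordinates, so that these coordinates cannot hold the whole transcript. Unique reads covered 98.6% and 98.1% of it. The log2 ratio was 1.87 (95% interval 1.66 to 2.09), and 1.51 after median-ratio rescaling. In the abnormal library MEF2D stood level with MYF6, with overlapping Poisson intervals of 71.1 to 81.9 and 66.4 to 81.2, and in the normal library level with MYOD1 (18.1 to 23.8 and 17.9 to 25.4).

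MEF2C was listed under 2 entries of the same locus, and their log2 ratios had opposite signs. The Entrez entry (gene 733590, chromosome 2, 85646913 to 85737797, minus strand) counted 538 reads in the abnormal library against 206 in the normal one, with RPKM values of 43.5 and 16.3. Its log2 ratio was 1.42 (95% interval 1.18 to 1.65). The Ensembl entry (ENSSSCG00000014149, 85647538 to 85720511), whose best match is isoform 2 of the human protein, had only 70 and 109 reads. Its RPKM was 7.82 in the abnormal library and 11.9 in the other, and its log2 ratio -0.61 (95% interval -1.04 to -0.18). The Entrez entry was called up-regulated. The Ensembl entry was not called, and its log2 ratio was below 0 under each of the 5 scalings tried, from -0.82 with GAPDH set equal to -1.0 with TMM, where it was called down-regulated.

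The difference between the MEF2C entries was 2.02 (95% interval 1.53 to 2.52) and does not depend on library scaling. In reads, the Entrez entry had 7.69 times the reads of the Ensembl entry in the abnormal and 1.89 times in the normal library. With the reads of both entries summed, MEF2C had 608 and 315 reads, the latter more than the 216 of MEF2D, with a log2 ratio of 0.98 (95% interval 0.78 to 1.18), just under the threshold, and was not called. The higher reads of MEF2C in the abnormal library thus lay in the longer entry, of 1938 bases, and the shorter entry had fewer. The study itself names MEF2C as up-regulated in these abnormal piglets, so the call of the Entrez entry is not independent evidence of a direction.

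Unique reads touched little of either transcript. They covered 38.5% of the Entrez entry in the abnormal library and 37.1% in the other, or 746 and 718 bases. Of the Ensembl entry they covered 13.3% and 16.3%, or 186 and 229 of its 1403 bases. Other entries with reads and length within 1.25-fold of the Entrez entry had a median coverage of 95.95% in the abnormal library, and 1 of these 131 entries was less covered. For the Ensembl entry this median was 77.7%, and 4 of 310 entries were less covered. Since a read that matches both entries is not unique, bases shared by both entries add to neither count. What share of the uncovered bases this accounts for was not tested.

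Listing under 2 entries was not particular to MEF2C. In 37 loci an Entrez and an Ensembl entry each had at least 10 reads in both libraries, and the size of the difference between their log2 ratios had a median of 0.62. In 13 of the 37 loci the entries had opposite signs. MEF2C had the 4th largest difference, and the MYF5 and MYF6 entries, which carry the same Ensembl gene identifier, were among the 37 as well.

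**Figure D2:**
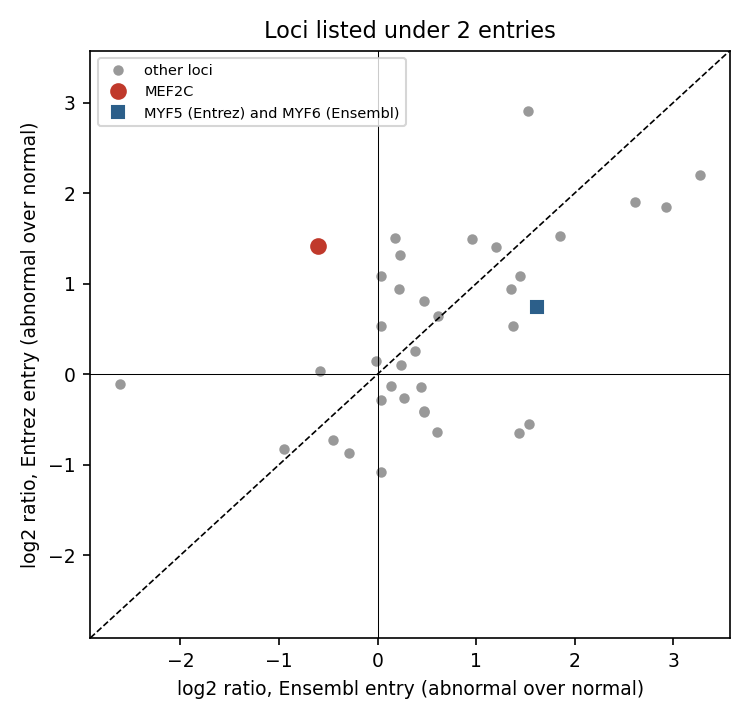
Log2 ratio of the Entrez entry against that of the Ensembl entry for the 37 loci listed under both, with the dashed line at equal values. MEF2C, at 1.42 and -0.61, lies where the signs are opposite, and MYF5 with MYF6 at 0.75 and 1.62.

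MEF2A was near the limit of what this depth can show. Its Entrez entry (gene 100037273, chromosome 1, 146047393 to 146086379, plus strand) counted 17 reads in the abnormal library against 3 in the normal one, with RPKM values of 2.09 and 0.361. The log2 ratio of 2.53 had a wide interval (0.86 to 4.21) and was not called at the false discovery rate used. An overlapping Ensembl entry, described as MEF2A protein variant 1 and not counted among the 9, had 12 and 3 reads with a log2 ratio of 2.03 (95% interval 0.31 to 3.75). With both summed, 29 against 6 reads gave a log2 ratio of 2.30 (95% interval 1.07 to 3.53), which was called. Unique reads covered 24.0% of the Entrez entry in the abnormal library, where entries of like reads and length had a median of 41.3%, and 11.5% in the normal library, where that median was 10.3%.

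Within the MEF2 factors, the log2 ratio of MEF2D exceeded that of the MEF2C Entrez entry by 0.46 (95% interval 0.14 to 0.78). Against MEF2A the differences of MEF2D (-0.66) and of MEF2C (-1.12) had intervals that held 0. Summed over the 5 MEF2 entries, the RPKM was 131 in the abnormal library and 49.8 in the other, of which MEF2D made up 58.1% and 41.8%. The Ensembl entry of MEF2C made up 5.95% and 23.9%. Reads that match both MEF2C entries are in neither value, so these are shares of unique reads per entry and may understate MEF2C.

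MSTN (gene 399534, chromosome 15, 89151697 to 89157090, minus strand) counted 128 reads in the abnormal library against 35 in the normal one. Its RPKM was 11.4 against 3.06, 3.74 times as high, with Poisson intervals of 9.54 to 13.6 and 2.13 to 4.25 that did not overlap. The log2 ratio was 1.90 (95% interval 1.37 to 2.44), called up-regulated, and 1.54 after median-ratio rescaling. Its Poisson interval overlapped that of MYF5 in the normal library and lay above it in the abnormal one. Its log2 ratio exceeded that of MYOD1 by 1.40 (95% interval 0.77 to 2.02). Against the Entrez entry of MEF2C the difference of 0.49 had an interval that held 0 (-0.10 to 1.07). The difference to both MEF2C entries summed was not computed. By symbol, MSTN, MYOD1 and MYOG were each listed under 1 entry.

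In all, 12 pairs of entries were compared by the ratio of their reads within a library, and in 5 of them the interval of the difference, not adjusted for the number of pairs, did not hold 0. These were MYF6 against MYOG and against MYOD1, MEF2D against the Entrez entry of MEF2C, MSTN against MYOD1, and both MEF2C entries against each other. MYF6 and MSTN therefore differed between the libraries by more than MYOD1 in a way that no rescaling of a library can change.

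**Figure D3:**
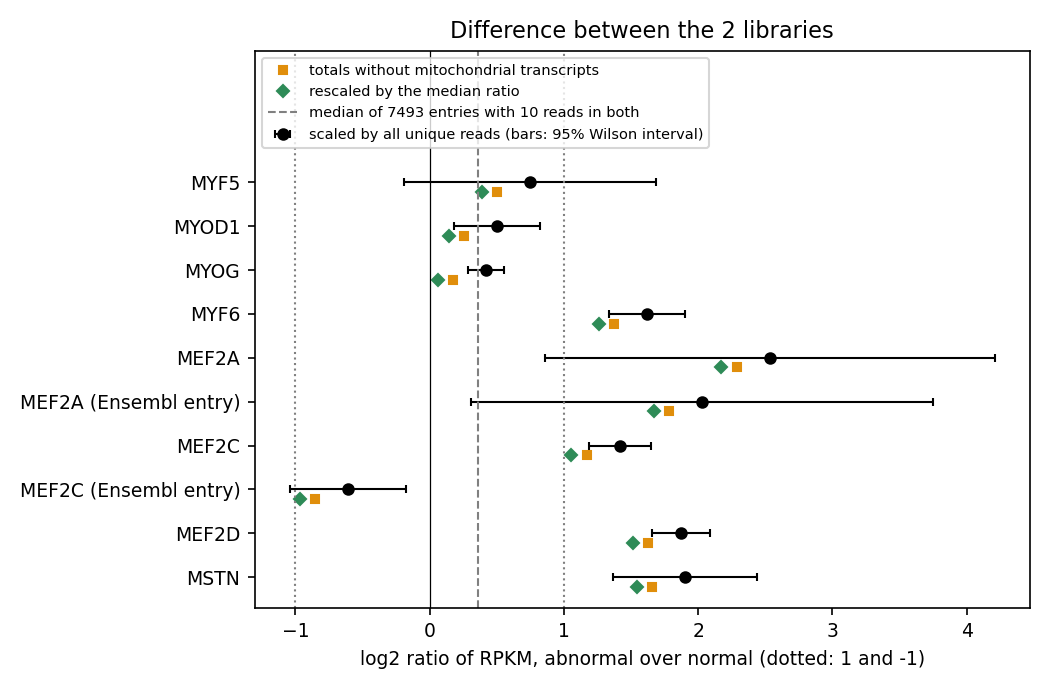
Log2 RPKM ratio of each entry (abnormal over normal, horizontal axis) with 95% Wilson intervals, with squares for totals without mitochondrial transcripts and diamonds for median-ratio rescaling. The dashed line is the median of the 7493 entries with at least 10 reads in both libraries (0.36), and MYOD1 and MYOG lie beside it. MYF6, the Entrez entry of MEF2C, MEF2D and MSTN lie past 1 under each of the scalings shown.

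The order of the levels also differed between the libraries. In the normal library MYOG was followed by MYF6 (23.9), MYOD1 (21.4) and MEF2D (20.8), whose Poisson intervals overlapped, and then by the Entrez entry of MEF2C (16.3), whose interval of 14.2 to 18.7 overlapped those of MYOD1 and MEF2D. In the abnormal library MEF2D (76.3) and MYF6 (73.5) came next to MYOG, then MEF2C (43.5) and MYOD1 (30.4), with intervals of 39.9 to 47.4 and 26.2 to 35.1. MYOD1 thus stood level with MEF2D in the one library and below it in the other.

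**Figure D4:**
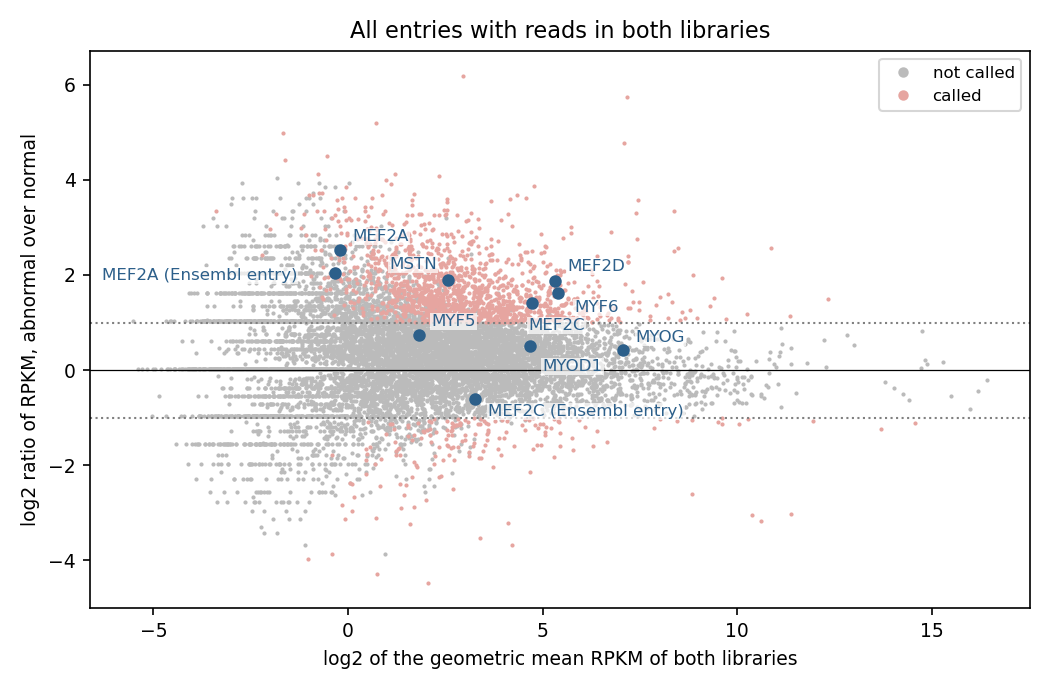
Log2 ratio (abnormal over normal) against the log2 geometric mean RPKM for the entries with reads in both libraries, with called entries in pink and the myogenic genes in blue. MYOD1 (0.50) and MYOG (0.42) lie inside the gray band, and MSTN (1.90), MEF2D (1.87), MYF6 (1.62) and the Entrez entry of MEF2C (1.42) among the called entries.

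Around these factors, 7 lists of partners, regulators and targets were examined. They held 151 genes, which matched 104 entries besides the 9. Of these entries 26 (25.0%) were called up-regulated and 1 down-regulated, beside 12.0% and 1.45% over the whole table, and their median log2 ratio was 0.61, beside 0.35. After median-ratio rescaling 16 were called up-regulated and 2 down-regulated, beside 6.48% up-regulated over the whole table. The 12.0% counts many entries with few reads, whereas most listed entries had at least 10 reads in either library. Of the 7493 entries with at least 10 reads in both libraries, 1364 were called up-regulated, a larger share than 12.0%.

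E proteins are the dimer partners of the myogenic factors, and ID proteins bind E proteins and keep them from DNA. Of 8 entries in this list 2 were called up-regulated (25.0%, beside 12.0% of the whole table). These were the E protein TCF12, with 266 against 76 reads and 1.84 as its log2 ratio (95% interval 1.47 to 2.21), and the repressor BHLHE40, with 598 against 165 reads and a log2 ratio of 1.89. Both were also called under each of the 5 rescalings tried, where 5.99% to 8.27% of the whole table were called up-regulated. The ID genes, named here after their values were seen, were not called, with log2 ratios of -0.17 for ID1 and -0.24 for ID2, and the median of the 7 entries with at least 10 reads in either library was -0.17.

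Of 12 entries for regulators that act before the myogenic factors, 2 were called up-regulated (16.7%, near the 12.0% of the whole table) and 0 down-regulated. Both encode EYA proteins, which are transcriptional co-activators. EYA4 counted 244 reads in the abnormal library against 26 in the normal one, with RPKM values of 21.4 and 2.24. Its log2 ratio was 3.26 (95% interval 2.68 to 3.84). EYA3 had 79 and 34 reads, a log2 ratio of 1.25, or 0.89 after median-ratio rescaling, which left EYA4 as the 1 call in the list. Another gene of the family, EYA2, named after its values were seen, was not called and had the opposite sign, with 4 against 13 reads and -1.67 as its log2 ratio (95% interval -3.21 to -0.13).

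Of 19 entries for proteins that activate or repress MEF2, 5 were called up-regulated (26.3%, beside 12.0% of the whole table) and 0 down-regulated. Of the 19 entries 12 had at least 10 reads in either library. Over the table, 1364 of the 7493 entries with at least 10 reads in both libraries were called up-regulated. The called entries of the list included the calcineurin subunit gene PPP3CB (465 against 139 reads, log2 ratio 1.77) and the calcineurin-binding repressor CABIN1 (230 against 68 reads, log2 ratio 1.79). MAPK14, the p38 kinase that phosphorylates MEF2, was called too (128 against 40 reads, log2 ratio 1.71). The others were the methyltransferase CARM1 (1.17) and the acetyltransferase CREBBP (1.10), both under 1 after median-ratio rescaling, which left 3 calls. The called genes thus included both an activator and a repressor of MEF2. HDAC5, a class IIa deacetylase named after its values were seen, had 410 and 332 reads, a log2 ratio of 0.34.

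Co-factors of the myogenic factors held the largest share of calls among the 7 lists, with 8 of 12 entries up-regulated and 0 down-regulated. This was 66.7%, beside 12.0% of the whole table, but the count depended on the scaling. It was 4 after median-ratio rescaling and 3 with TMM, beside 6.48% and 5.99% of the whole table. The 12 entries stood for 11 genes, and all 12 had at least 10 reads in either library. Over the table, 1364 of the 7493 entries with at least 10 reads in both libraries were called up-regulated. CSRP3, the muscle LIM protein that is known to enhance MYOD activity, was listed under 2 entries with log2 ratios of 3.31 (1995 against 206 reads) and 2.57 (5036 against 866 reads). IFRD1, a co-activator of MYOD, had 1018 and 397 reads with a log2 ratio of 1.39 (95% interval 1.22 to 1.56). RB1 (1.57), CDKN1A (1.24), VGLL2 (1.16), SMYD1 (1.14) and, named after its value was seen, MAML1 (1.34) were also called. After median-ratio rescaling RB1 kept its call, while CDKN1A (0.88), VGLL2 (0.80), SMYD1 (0.78) and MAML1 (0.98) lost theirs, and IFRD1 lost its call with TMM. The study names CSRP3 and IFRD1 for these samples, so they are not independent evidence of a direction.

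Genes of satellite cells and of myoblast fusion moved both ways. Of 19 entries 2 were called up-regulated (10.5%, no more than the 12.0% of the whole table), SDC4 with 440 against 62 reads (log2 ratio 2.86) and JAM3 with 131 against 58 reads (1.21, or 0.85 and not called after median-ratio rescaling). FGFR4, a growth factor receptor of myoblasts, was called down-regulated with 89 against 202 reads (log2 ratio -1.15). CDH15, the cadherin of satellite cells and myoblasts, was not called, with 278 reads in the abnormal library against 470 in the normal one and -0.73 as its log2 ratio (95% interval -0.94 to -0.51). After median-ratio rescaling its log2 ratio was -1.09 and it was called down-regulated, as it was with TMM and without the 20 most abundant transcripts.

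In the myostatin pathway 3 of 17 entries were called up-regulated (17.6%, beside 12.0% of the whole table) and 0 down-regulated. After median-ratio rescaling 2 remained called, beside 6.48% called up-regulated over the whole table. Of the 17 entries 16 had at least 10 reads in either library. Over the table, 1364 of the 7493 entries with at least 10 reads in both libraries were called up-regulated, a share no smaller than 17.6%. WFIKKN2, an extracellular inhibitor of myostatin, had 47 against 6 reads with a log2 ratio of 3.0 (95% interval 1.81 to 4.19). SMAD3, which carries the signal to the nucleus, had 49 against 10 reads with a log2 ratio of 2.32 (95% interval 1.36 to 3.29). FURIN, the protease that cleaves the myostatin precursor, had 152 against 68 reads, a log2 ratio of 1.19, or 0.83 after median-ratio rescaling. The inhibitor follistatin (FST) and the receptor gene ACVR2B, named after their values were seen, were not called, with 123 against 162 reads and 17 against 10 reads. The inhibitors WFIKKN2 and FST thus had log2 ratios of opposite sign, 3.0 and -0.37.

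Of 18 entries for genes described as targets of the myogenic factors or MEF2, 5 were called up-regulated (27.8%, beside 12.0% of the whole table) and 0 down-regulated. They were KLHL31 (488 against 106 reads, log2 ratio 2.23), the acetylcholine receptor subunit CHRNA1 (119 against 42 reads, 1.53), the actin nucleator LMOD2 (7376 against 2805 reads, 1.43), KLHL40 (1.28) and CDKN1A (1.24), which stands in both lists. After median-ratio rescaling KLHL40 (0.92) and CDKN1A (0.88) lost their calls and 3 remained, beside 6.48% called up-regulated over the whole table. The median log2 ratio of the 18 entries was 0.63. All 18 had at least 10 reads in either library. Of the 7493 entries with at least 10 reads in both libraries, 1364 were called up-regulated, a larger share than 12.0%.

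**Figure D5:**
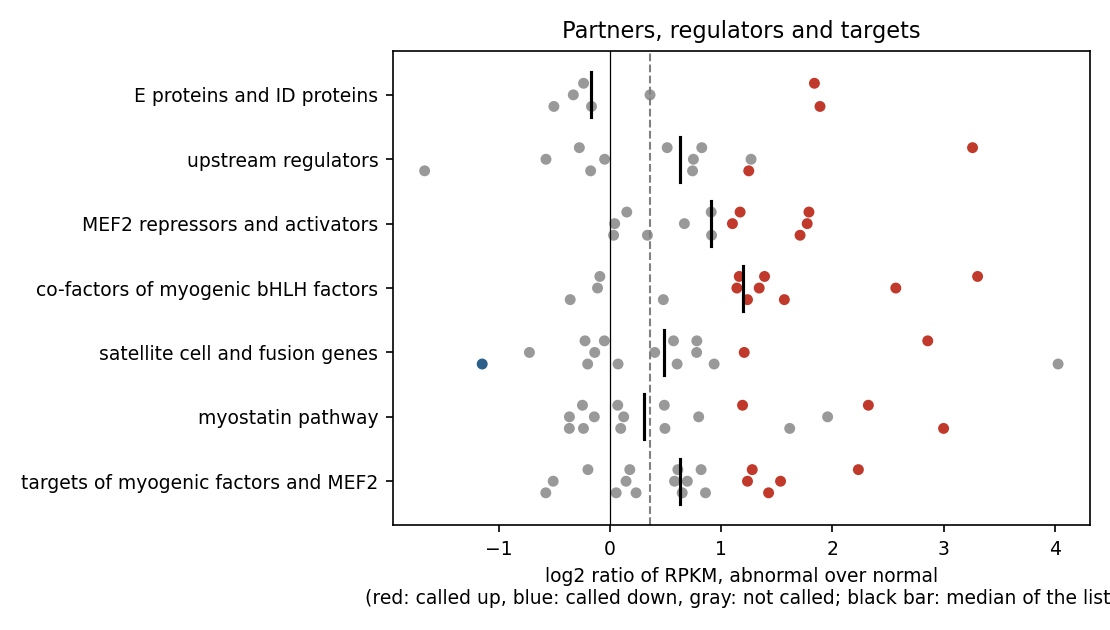
Log2 ratio (abnormal over normal) of each listed entry with at least 10 reads in either library, with called entries in color, the list's median as a black bar and the median of all entries with 10 reads in both libraries (0.36) as a dashed line. Red points lie in every list, with 2 calls for E and ID proteins and 8 for co-factors, and the 1 blue point is FGFR4.

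Markers of other cell types were read beside these results. Summed over the genes found, leukocyte markers (5 of 5 genes) stood at an RPM, the reads scaled to the library total alone, of 9.88 in abnormal and 16.7 in normal muscle, red blood cell markers (3 of 4) at 439 and 630, and fibroblast markers (4 of 5) at 2652 and 3036. Of the red blood cell markers HBB had 422 and 614, HBM 3.45 and 2.92, and ALAS2 13.5 and 12.9. The fibroblast marker PDGFRA, at 11.1 and 6.14, was higher in abnormal muscle, whereas LUM, DCN and COL3A1 were lower. Endothelial markers (4 of 5) stood at 164 and 152, Schwann cell markers (3 of 4) at 26.8 and 16.6, and muscle fibre markers (2 of 6) at 71623 and 64218, of which ACTA1 made up 67697 and 59894 while MYBPC1 had 3926 and 4324. Among the endothelial markers KDR and VWF were higher in abnormal muscle and PECAM1 and TEK lower. Liver markers (3 of 4) stood at 50.8 and 90.5, with ALB at 1.88 and 41.6 and APOA1 at 46.7 and 43.1, and cardiac markers (2 of 5) at 5.17 and 13.0. Adipocyte markers (2 of 4) stood at an RPM of 0.470 and 0, with PLIN1 and LEP at 0 reads in the normal library. Of all marker entries 0 were called up-regulated, and 1 cardiac marker (MYL7) and 1 liver marker (ALB) were called down-regulated, to which median-ratio rescaling added the leukocyte marker PTPRC and the liver marker SERPINA1. Whether cell make-up had a part in the values of the myogenic genes was not tested.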

How the data were processed

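Total RNA of biceps femoris was pooled by group, polyadenylated RNA was sequenced, and the authors aligned cleaned reads with SOAPaligner/soap2 to transcripts of Sscrofa9, allowing at most 2 mismatches. The deposited read count is that of unique reads per transcript, without normalization, and the deposited RPKM scales it to transcript length and to the library's unique reads. The coverage deposited by the authors is the percent of a transcript's bases under unique reads. A transcript with no unique read has no row in a table and was set to 0.

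The deposited RPKM was recomputed to within a relative difference of 3.3e-08. Symbols came from the tables or, by identifier, from RefSeq (Sscrofa11.1) and Ensembl names, for 9616 entries. An RPKM of 0 was set to 0.001. P-values of the two-sided Audic-Claverie test were adjusted by Benjamini-Hochberg over 12535 entries. Ratios have Wilson intervals, levels exact Poisson intervals, and differences between entries intervals from the 4 read counts. With 1 library per group, a quasi-likelihood or DESeq2 fit was not possible; edgeR's exact test with an assumed variation of 0.4 or 0.2 was an alternative. The test was tried on simulated data. Members and lists were chosen with earlier results of these data known. All member entries are named, and of each list the called entries with the 3 largest and 3 smallest log2 ratios, plus IFRD1 and CSRP3. CDH15 was set as a marker of muscle stem cells, with PAX7 and MYF5. Other entries of the lists, such as TCF3 and TCF4, were named outside this rule with their values known. Python 3.11.15, scipy 1.17.1, statsmodels 0.14.6, R 4.3.3 and edgeR 4.0.16 were used.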

Additional observations from a re-analysis of the deposited data

How the results depend on the processing

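The number of these entries called up-regulated was 4 under each of the 5 rescalings, both pseudocounts, a fold of at least 1.5, a minimum of 10 reads in both libraries and with Fisher's exact test. Over the whole table the share called up-regulated was 5.99% (TMM) to 8.27% (GAPDH) under the rescalings. It was 10.1% and 11.9% with pseudocounts of 1 and 0.1, 16.4% with a fold of 1.5 and 12.2% with Fisher's exact test. With the minimum of 10 reads, 1386 of the 7493 entries that reached it in both libraries were called up-regulated. The number of these entries fell to 1 (MEF2D) when edgeR's exact test assumed a variation of 0.2, beside 1.94% of the whole table. It fell to 0 with 0.4, where 2 entries of the whole table were called up-regulated. It was 5 with a false discovery rate of at most 0.05, when MEF2A was added, beside 15.7% of the whole table. The number called down-regulated rose from 0 to 1 after TMM rescaling, by the Ensembl entry of MEF2C. The median log2 ratio of 1.42 became 1.06 with median-ratio rescaling, 1.02 with TMM, 1.17 without mitochondrial transcripts, 1.11 without the 20 most abundant transcripts, 1.18 with a pseudocount of 1, and 1.08 both with at least 10 reads in both libraries and without MEF2D, the last an alternative chosen after seeing the data.

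Of the listed entries, 26 were called up-regulated at first. This became 16 with median-ratio rescaling, 15 with TMM, 17 without mitochondrial transcripts, 16 without the 20 most abundant transcripts, 6 with edgeR's exact test at 0.2 and 0 at 0.4. Over the whole table the share called up-regulated was 6.48%, 5.99%, 7.87%, 7.04%, 1.94% and 0.016% under these settings in turn. The 1 down-regulated call became 2 with median-ratio rescaling, with TMM, without the 20 most abundant transcripts and with a fold of at least 1.5, the added call being CDH15, and 0 in both edgeR settings. Over the whole table, the calls moved from 1510 up and 182 down to 812 up and 498 down with median-ratio rescaling. The 5 rescalings shifted every log2 ratio by -0.21 (GAPDH) to -0.39 (TMM), and beyond this shift the cause of these changes was not tested. No paired analysis was possible because each group has 1 library, which also means that no library could be left out. Depth limits MEF2A, MYF5 and the receptors of the myostatin pathway, each with under 40 reads in either library.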

Other observations

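Entries whose protein description names MYOD or MEF2 outside the lists were looked up after the other values had been seen. MAMSTR, which encodes a co-activator of MEF2, counted 179 reads in the abnormal library against 229 in the normal one, with RPKM values of 22.2 and 27.8. Its log2 ratio was -0.32 (95% interval -0.61 to -0.04), and -0.68 after median-ratio rescaling. MDFIC, a relative of the MYOD inhibitor MDFI, had 34 and 51 reads, a log2 ratio of -0.55 (95% interval -1.18 to 0.07). MDFI itself was listed with 3 reads in the normal library and 0 in the abnormal one, where no fold is given. None of the 3 entries was called. The co-activator MAMSTR and the called MEF2 entries thus had opposite signs of their log2 ratios in the same pair of libraries, while the Ensembl entry of MEF2C shared its sign.

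Among the E proteins outside the called entries, TCF4 counted 215 reads in the abnormal library against 312 in the normal one and a log2 ratio of -0.51 (95% interval -0.76 to -0.26), while TCF3 had 59 and 47 reads, a log2 ratio of 0.36 (95% interval -0.19 to 0.91). Neither was called, beside a log2 ratio of 1.84 for TCF12, and both are named here with their values known.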
